A study of Mus musculus with 2 samples.

Results

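The Lin28, Igf2bp, Hmga and Myc genes are a set of 10 mouse genes known for their part in developmental timing: Lin28a, Lin28b, Trim71, Igf2bp1, Igf2bp2, Igf2bp3, Hmga1, Hmga2, Mycn and Myc. They were chosen by name, and all 10 were among the 43346 mouse genes of the deposited tables. Their RNA was measured by total RNA-seq in kidneys of B6NCrl mouse embryos at embryonic day 15.5, with 10 ng of RNA per library and with both sexes pooled. The only group, embryonic kidney, had 2 biological replicates. The pool of replicate 1 was made from 78 embryos, and its library had a total expected count of 36244861. For replicate 2, kidneys of 62 embryos were pooled, and the total was 39415002. No mouse was treated or mutant, and there was no second age or tissue, so the data hold levels within the organ and the spread between the pools, with no comparison of conditions. In whole tissue, fewer cells that express a gene and less RNA per cell cannot be told apart.

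The proteins of this set work on one another's RNA. LIN28A and LIN28B bind the loop of let-7 precursors and block their maturation, TRIM71 is a ubiquitin ligase and RNA-binding protein of stem cells and early embryos, and the mature let-7 microRNAs repress the mRNAs of Lin28, Igf2bp, Hmga and Myc genes by base pairing. The IGF2BP proteins bind and stabilise mRNAs, including that of Myc. HMGA proteins bend AT-rich DNA and open chromatin, and MYC and MYCN pair with MAX to drive growth and ribosome genes. In the embryonic kidney, LIN28 and MYCN are known from work on nephron progenitor maintenance and on Wilms tumour, a cancer of embryonic kidney cells.

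Of the 10 genes, 7 were detected, meaning 1 TPM or more in both libraries, beside 62.3% of the 21474 protein-coding genes and 35.4% of all genes with a matched name. TPM is a length-adjusted abundance, so levels of different genes can be set side by side. The 3 genes below 1 TPM in both libraries were the let-7 blockers and Trim71. The 7 detected genes all stood above the median detected protein-coding gene, which was at 19.5 TPM. No level of another age or organ was measured here to set them against.

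The Lin28 genes were close to the floor. Lin28a (ENSMUSG00000050966.5; mm10 chromosome 4, 134003330 to 134018841, minus strand), which encodes the cytoplasmic let-7 blocker of pluripotent cells, was at 0.13 TPM in the replicate 1 library and 0.14 TPM in the replicate 2 library. These levels rest on 3 expected counts in replicate 1 and 13 in replicate 2. Lin28b (ENSMUSG00000063804.7; chromosome 10, 45376620 to 45486395, minus strand), its nuclear and cytoplasmic paralog, was at 0.6 TPM in replicate 1 and 0.59 TPM in replicate 2, from 78 and 83 expected counts. Lin28b thus held more than Lin28a in both libraries, 81.5 ± 0.969% of their summed TPM (SD, n = 2). This SD understates the spread, since expected counts of Lin28b and Lin28a were 78 and 3 in replicate 1 and 83 and 13 in replicate 2. In replicate 1, 0.1 of the 0.13 TPM of Lin28a came from 0.75 counts on a transcript of 394 nt. The TPM of Lin28b was 4.41 times that of Lin28a by their means, a ratio that rests on the few counts of Lin28a. Trim71 (ENSMUSG00000079259.2; chromosome 9, 114507133 to 114564369, minus strand) was at 0.71 TPM in replicate 1 and 0.81 TPM in replicate 2, from 161.63 and 197.64 expected counts over a transcript of 9332 nt. It overlaps the opposite gene C130032M10Rik over 728 nt, which had 7.37 expected counts in replicate 1 and 8.36 in replicate 2. How reads were divided between these genes was not tested.

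Marker RNA of germ and pluripotent cells was near 0, and its relation to the low levels of Lin28a, Lin28b and Trim71 was not tested. None of the 6 marker genes of such cells that were looked at (Ddx4, Dazl, Pou5f1, Nanog, Dppa3 and Sox2) reached 1 TPM in both libraries, and their summed level was 0.58 TPM in replicate 1 and 0.78 TPM in replicate 2. Markers of the labelled tissue were present: all 9 of the nephron progenitor list were detected, with a summed level of 446 TPM in replicate 1 and 449 TPM in replicate 2. All 5 genes of the ureteric tips, all 4 of the stromal progenitors and all 5 of the podocytes were detected too.

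The 3 mRNA-binding Igf2bp genes were all detected at moderate levels. Igf2bp2 (ENSMUSG00000033581.12; chromosome 16, 22059009 to 22163299, minus strand), the family member that many adult tissues also express, was at 79.45 TPM in replicate 1 and 82.79 TPM in replicate 2. Igf2bp1 (ENSMUSG00000013415.5; chromosome 11, 95957163 to 96005940, minus strand), known as an oncofetal protein, was at 43.49 and 46.19 TPM in replicates 1 and 2. Igf2bp3 (ENSMUSG00000029814.8; chromosome 6, 49085223 to 49214957, minus strand), the other oncofetal member, was at 33.63 and 34.19 TPM. The values of the 3 genes did not overlap between genes, and Igf2bp2 alone held 50.7 ± 0.00395% of the family's summed TPM, Igf2bp1 28.0 ± 0.376% and Igf2bp3 21.2 ± 0.372% (SD, n = 2). The very small SD of Igf2bp2 is a near tie of 2 values and leaves out errors that both libraries share. The order of the 3 genes depends on which transcripts are counted, as set out with the transcripts. Part of Igf2bp3 lies opposite an oppositely transcribed neighbour, Malsu1, over 1529 nt of transcript. Malsu1 stood at 58.2 TPM in replicate 1 and 57.56 TPM in replicate 2. Expected counts of Igf2bp3 and Malsu1 were 3496.61 and 1070.39 in replicate 1 and 3827.47 and 1183.53 in replicate 2. They added up to whole numbers, so reads were shared between the opposite strands. The share of Igf2bp3 reads that belong to Malsu1 was not tested.

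Hmga1 was the most abundant of the 10 genes and Hmga2 the least abundant of the 7 detected ones. Hmga1 (ENSMUSG00000046711.11; chromosome 17, 27556497 to 27563674, plus strand), which encodes an architectural chromatin protein of dividing cells, was at 212.55 TPM in replicate 1 and 222.92 TPM in replicate 2. Its level was above those of 95.2% of detected protein-coding genes. Hmga2 (ENSMUSG00000056758.10; chromosome 10, 120361275 to 120476469, minus strand), its paralog and a classic let-7 target, was at 24.84 TPM in replicate 1 and 22.92 TPM in replicate 2, above 55.8% of detected protein-coding genes. Hmga1 held 90.1 ± 0.807% of their summed TPM, and the difference was 3.14 ± 0.127 on the log2(TPM + 1) scale. Hmga1 shares 99.6% of 1598 aligned nt with the gene Hmga1b on chromosome 11, to which the quantifier gave 4.72 TPM in replicate 1 and 2.84 TPM in replicate 2, so the division of reads between these copies is uncertain. Hmga2 runs opposite to the antisense genes 1700006J14Rik, at 9.96 and 9.04 TPM in replicates 1 and 2, and 9230105E05Rik, at 1.77 and 1.57 TPM. Reads where they overlap Hmga2 may belong to either strand, and their division was not tested.

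Both growth-promoting Myc genes were among the more abundant genes of the tissue. Myc (ENSMUSG00000022346.10; chromosome 15, 61985391 to 61990374, plus strand) was at 94.96 TPM in replicate 1 and 99.93 TPM in replicate 2. Mycn (ENSMUSG00000037169.10; chromosome 12, 12936093 to 12941914, minus strand), the paralog used by many embryonic progenitors, was at 71.61 TPM in replicate 1 and 69.39 TPM in replicate 2. Myc was above 87.9% and Mycn above 82.7% of detected protein-coding genes. Myc supplied 58.0 ± 1.42% and Mycn 42.0 ± 1.42% of their summed TPM. The third family gene, Mycl, was much lower, at 6.39 TPM in replicate 1 and 6.58 TPM in replicate 2.

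**Figure D1:**
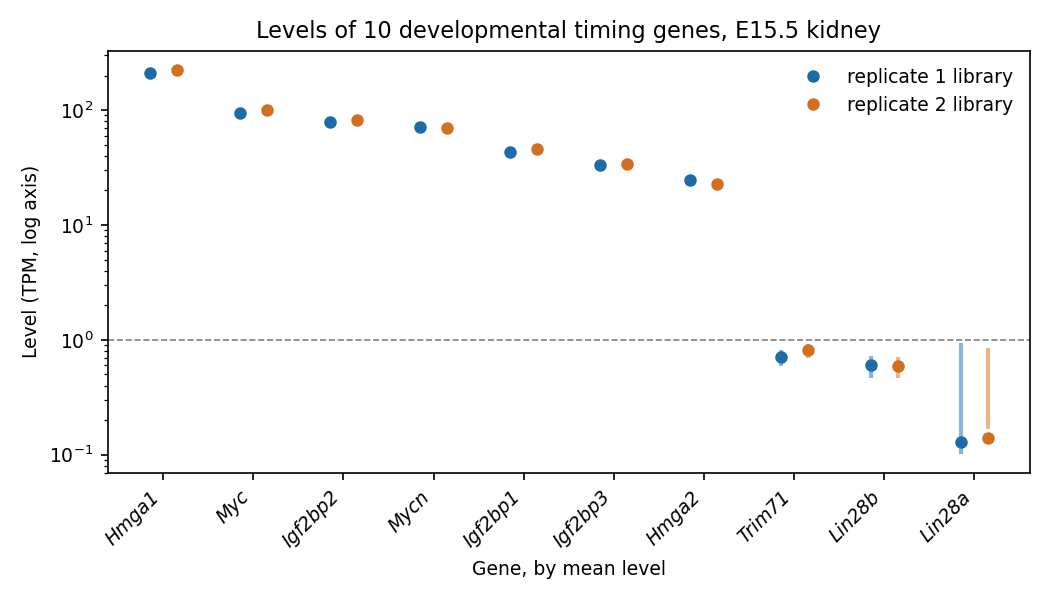
Level in TPM (log axis) of each of the 10 genes, ordered by mean level, with 1 point per library and, as vertical bars, the quantifier's own interval of the TPM value, whose level is not given in the sources used here; the dashed line is at 1 TPM. The 7 detected genes lie between 22.92 and 222.92 TPM, and Trim71, Lin28b and Lin28a lie between 0.13 and 0.81 TPM, with the interval of Lin28a reaching 0.938 TPM in replicate 1 and 0.85 TPM in replicate 2.

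The order of the genes was set against the replicate error of genes of like abundance. This error is the spread of a gene between the libraries. It leaves out errors that both libraries share, such as those of length or transcript models. A pair counted as different when log2(TPM + 1) differed in the same direction in both libraries and by more than a limit. The limit was the size of log2 TPM ratio between the libraries that 95% of genes stay under, taken over all detected genes in the abundance bin of the lower gene. It was 0.917 from 1 to 3 TPM, 0.788 from 3 to 10 TPM, 0.365 from 10 to 30 TPM, 0.268 from 30 to 100 TPM and 0.253 above. A lower gene below 1 TPM, where no bin lies, was given the limit of the lowest bin. By this rule 40 of the 45 pairs differed. The 3 pairs within Trim71, Lin28b and Lin28a are among the other 5 and could not have passed the limit. Among neighbours in the order, 5 of 9 pairs differed: Hmga1 above Myc by 1.15, Mycn above Igf2bp1 by 0.64, Igf2bp1 above Igf2bp3 by 0.39, Igf2bp3 above Hmga2 by 0.49 and Hmga2 above Trim71 by 3.82 on the log2(TPM + 1) scale. Myc and Igf2bp2 (difference 0.26 ± 0.0100) and Igf2bp2 and Mycn (0.20 ± 0.0732) were within the limit. The difference of Myc over Igf2bp2 passed it in replicate 2 alone (0.27) and when sums left out non-coding transcripts of Igf2bp2. The 3 pairs within Trim71, Lin28b and Lin28a were not tested by this rule, because a pseudocount of 1 keeps differences between levels this low under the limit. Trim71 with Lin28b and Lin28b with Lin28a are thus among the 4 neighbour pairs that did not differ. With a pseudocount of 0.1, Trim71 stood above Lin28a by 1.87 and Lin28b above Lin28a by 1.56. Both were past the limit of the lowest bin, which was not measured at levels as low as that of Lin28a. No p-value was computed, since 2 paired libraries cannot give an exact 2-sided p below 0.5.

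In TPM, none of these genes differed between the pools by more than the limit of its abundance bin. The 3 genes below 1 TPM lie in no bin and were given the limit of the lowest. The TPM ratio of replicate 2 over replicate 1 ran from 0.923 for Hmga2 to 1.06 for Igf2bp1 among the 7 detected genes, and reached 1.14 for Trim71. None of the 10 genes passed 2-fold, beside 1.74% of the 15011 genes detected in both libraries. Counts gave another value for Lin28a. Relative to library size, its counts were 3.98 times as high in replicate 2 as in replicate 1, with an exact 95% counting interval of 1.10 to 21.8 for the ratio, while its TPM ratio was 1.08. In replicate 1, the quantifier had put 0.75 of the 3 counts on a transcript of 394 nt and so gave that transcript 79.49% of the gene's TPM, against 0% in replicate 2. The Lin28a level is therefore read here as below 1 TPM, with no order between the pools. Counting intervals of the count ratio held 1 for 5 of the 10 genes. Besides Lin28a, they left it out for Igf2bp1 (1.01 to 1.08), Hmga1 (1.02 to 1.09), Hmga2 (0.861 to 0.970) and Mycn (0.918 to 0.998). These intervals cover counting error only.

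**Figure D2:**
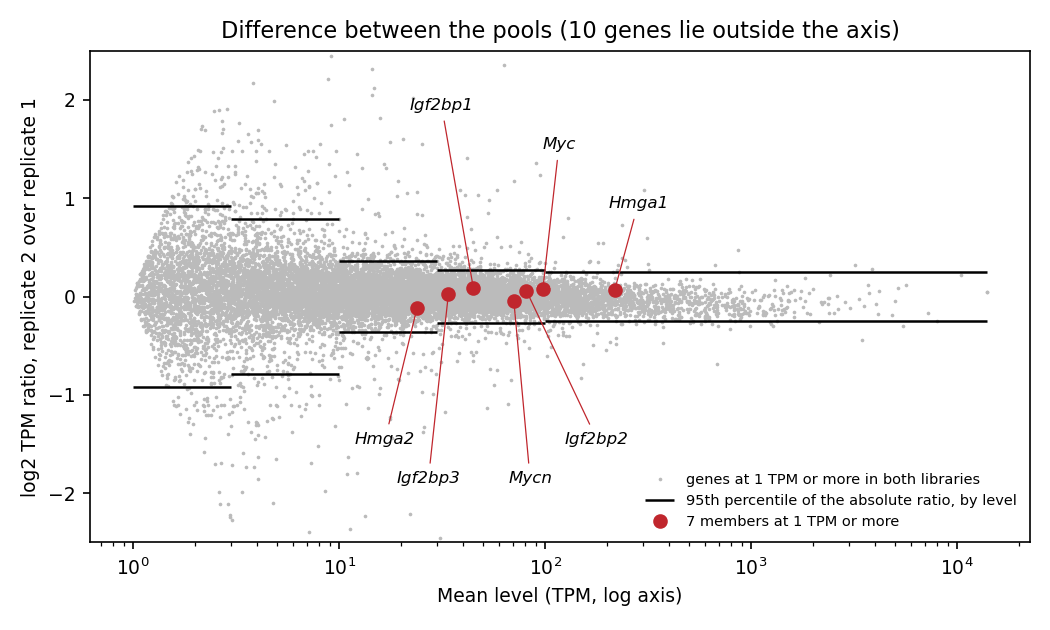
The log2 TPM ratio of replicate 2 over replicate 1 (vertical axis, cut at 2.5 either way, which leaves out 10 genes) against mean TPM (log axis) for all genes at 1 TPM or more in both libraries in grey, with the 7 detected genes of the set in red and the 95th percentile of the absolute ratio per abundance bin as black lines. The 7 genes lie inside the lines, with TPM ratios between 0.923 and 1.06.

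In summed TPM, markers of adrenal gland, liver and skeletal muscle differed more between the pools than any gene of the set. Their part in the levels of the set was not tested. Summed TPM of 6 adrenal cortex markers was 44.9 in replicate 1 and 149 in replicate 2, and that of 7 adrenal medulla and sympathetic markers was 17.7 in replicate 1 and 99.2 in replicate 2. The 6 liver markers summed to 222 in replicate 1 and 432 in replicate 2, and the 6 skeletal muscle markers to 386 in replicate 1 and 206 in replicate 2. The 6 erythroid markers summed to 7126 in replicate 1 and 8188 in replicate 2. The 6 gut and pancreas markers, of which Cdx2 and Pdx1 were at 0 in at least 1 library, summed to 16.3 in replicate 1 and 15.7 in replicate 2. Most of that sum was Vil1, at 10.09 TPM in replicate 1 and 9.34 TPM in replicate 2. Single markers moved in opposite directions, with 2 of the 6 higher in replicate 2. Muc2 was at 1.58 and 0.32 TPM in replicates 1 and 2, and Cpa1 at 1.47 and 2.43 TPM. Within the set, the TPM ratio of replicate 2 over replicate 1 ran from 0.923 for Hmga2 to 1.14 for Trim71. Mycn was at 0.969 and Lin28b at 0.983. How much RNA of any gene of the set came from these tissues was not tested, and these ratios do not show it.

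Each gene's reads were divided by the quantifier among 41 annotated transcripts. Lin28b, Igf2bp3 and Trim71 have 1 transcript each. In 7 of the 10 genes a single transcript held at least 50% of the gene's TPM in both libraries. Hmga2 was nearly all Hmga2-201, which encodes the usual protein of 108 residues, at 99.17% in replicate 1 and 98.2% in replicate 2. Igf2bp1-201, the coding transcript of Igf2bp1, held 81.43% in replicate 1 and 80.99% in replicate 2, and the rest went to 4 short non-coding transcripts. By expected counts, which are not adjusted for length, Igf2bp1-201 held 98.4% in both libraries. The difference in share between the libraries was taken over 25337 transcripts of genes with at least 1000 counts. Each held at least 1% of its gene by the mean, but not all of it. The 95th percentile of the difference was 8.79 percentage points. Among the 6 genes of the set with such transcripts, the largest difference was 5.39 points, for Myc-206, at 6.62% in replicate 1 and 12.01% in replicate 2.

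Igf2bp2 was divided between coding and other transcripts. Its leading coding transcript, Igf2bp2-201, held 43.21% in replicate 1 and 41.94% in replicate 2. Transcripts annotated as retained introns, a class named for intron sequence left in the RNA, held 50.38% in replicate 1 and 54.77% in replicate 2. That share was higher than in 95.2% of the 5365 detected protein-coding genes with such a transcript, whose median was 8.9%. Most of it came from Igf2bp2-207, with 39.56% in replicate 1 and 42.67% in replicate 2.

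The class name says little about the letters of Igf2bp2-207. This transcript of 3267 nt and 14 exons spans chromosome 16, 22059074 to 22089118, and 3259 of its letters lie inside exons of the coding transcripts of the gene, with 8 outside. It lacks the start of the 16-exon Igf2bp2-201, which runs to 22163299. The other 4 retained-intron transcripts carry between 365 and 1379 nt of intron each and together held 10.82% of the gene's TPM in replicate 1 and 12.1% in replicate 2. How reads within the shared exons were divided between Igf2bp2-201 and Igf2bp2-207 was not tested.

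The order within the family changed with the transcripts that were summed. Summed over coding transcripts only, Igf2bp2 was at 39.43 TPM in replicate 1 and 37.3 TPM in replicate 2, Igf2bp1 at 35.42 and 37.41 TPM, and Igf2bp3 at 33.63 and 34.19 TPM. None of the 3 pairs then differed beyond a limit of 0.241, with differences of 0.07 between Igf2bp2 and Igf2bp1, 0.17 between Igf2bp2 and Igf2bp3 and 0.10 between Igf2bp1 and Igf2bp3 on the log2(TPM + 1) scale. With Igf2bp2-207 added to the coding transcripts, Igf2bp2 was at 70.86 TPM in replicate 1 and 72.63 TPM in replicate 2. It then stood above Igf2bp1 by 0.96 ± 0.0294 and above Igf2bp3 by 1.06 ± 0.00846, while Igf2bp1 and Igf2bp3 were still within the limit, at 0.10, since the short non-coding transcripts of Igf2bp1 stayed out of the sum. Both of these sums were chosen after the transcript values had been seen.

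**Figure D3:**
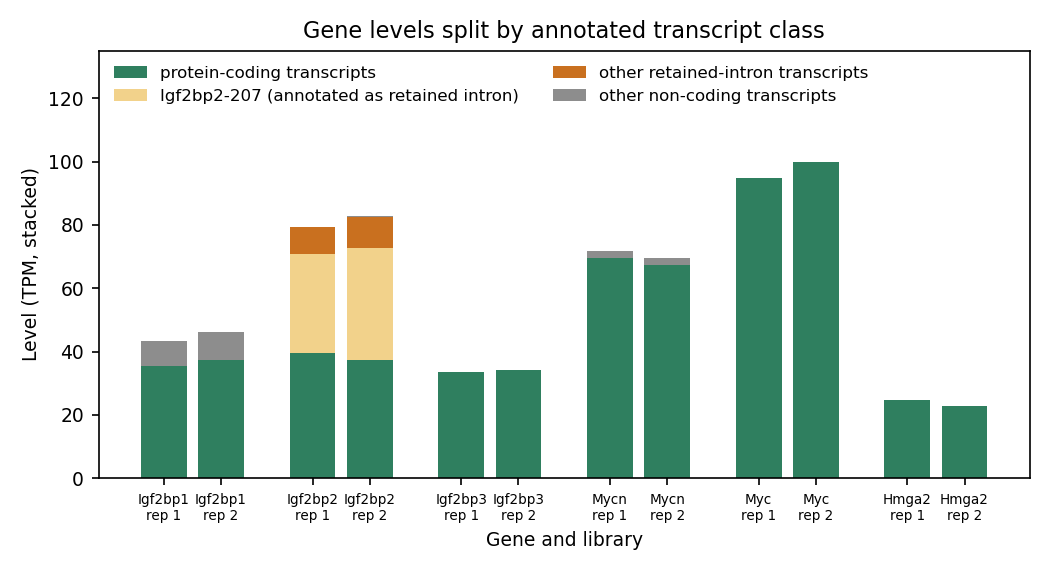
Stacked level in TPM of Igf2bp1, Igf2bp2, Igf2bp3, Mycn, Myc and Hmga2 in each library, split into protein-coding transcripts, Igf2bp2-207, other retained-intron transcripts and other non-coding transcripts. The coding parts of the 3 Igf2bp genes are alike, from 33.63 to 39.43 TPM, and Igf2bp2-207 adds 31.43 TPM in replicate 1 and 35.33 TPM in replicate 2.

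The chromatin protein Hmga1 is made in a longer and a shorter splice form. Transcripts annotated with the longer reading frame, of 106 or 107 residues, held 62.66% of the gene's TPM in replicate 1 and 61.39% in replicate 2. Those with the shorter one, of 96 residues, held 37.34% in replicate 1 and 38.61% in replicate 2. The reading frames come from the M21 release, in which 5 of the 6 Hmga1 transcripts have another length than in the deposited tables. For Mycn, Mycn-201 held 66.71% in replicate 1 and 63.74% in replicate 2, and Mycn-202 held 30.45% in replicate 1 and 33.3% in replicate 2. These transcripts of Mycn share the same reading frame of 462 residues and differ outside it. For Myc, the quantifier gave Myc-201 and Myc-205 equal shares, 23.98% each in replicate 1 and 22.96% each in replicate 2. Their sequences are identical in M21 and only their annotated starts differ, at 454 and 439 residues, so reads cannot tell these Myc forms apart.

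Target letters for let-7 were looked up in the members' RNA. A microRNA recognises mRNAs mainly through its seed, bases 2 to 8 from the 5′ end, and the 9 mature let-7 names in RefSeq (GRCm38.p6) share 1 seed. The following are shown to make the seed visible, with it in capitals.
let-7a-5p: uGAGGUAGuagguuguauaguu
let-7d-5p: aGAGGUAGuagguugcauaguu
let-7g-5p: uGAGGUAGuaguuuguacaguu
miR-98-5p: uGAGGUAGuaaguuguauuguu
The reverse complement of this seed, CTACCTC, was searched on the sense strand of each annotated 3′ UTR in GENCODE M21. A match followed by A counted as the longer, 8-letter form. A match is a description of the letters and not evidence of binding.

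In the leading transcript of each gene, 8 of the 10 genes held the 7-letter match, 21 matches in all, of which 13 were of the 8-letter form. Leading means the largest mean share over the libraries. Lin28a-201 held only 20.51% in replicate 1, and Igf2bp2-201 was below Igf2bp2-207 in replicate 2, at 41.94% and 42.67%. For Myc, Myc-202 was taken, while Myc-201 and Myc-205 of identical sequence together held 46.9%, likewise without the match. The match was present in 8.27% of 11653 detected protein-coding genes, and the 8-letter form in 2.93%. The share grows with length, from 2.11% of genes with a 3′ UTR under 500 nt to 31.5% of those of 4000 nt or more. Most genes of the set were known let-7 targets when they were chosen, so their count is not independent of the choice.

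The matches were spread unevenly over the set. Igf2bp1 (3′ UTR of 6337 nt), Hmga2 (2977 nt), Lin28b (4445 nt) and Trim71 (5512 nt) held 4 each. Among the 11653 detected genes, 4 held that many or more: Hmga2, Igf2bp1 and Hic2 with 4 each, and Trim6 with 6 in 2220 nt. Lin28a held 2 matches in 2775 nt, and Igf2bp2, Igf2bp3 and Hmga1 held 1 each. Myc held none in 466 nt and Mycn none in 913 nt, where only the 6-letter core occurred, in 2 places. No match says only that these letters are not in this window.

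The match nearest to the stop codon of each gene is printed with its neighbours on the transcript strand, 5′ to 3′, with the 7 letters in capitals, because these are the letters that 8 of the 10 genes share. Coordinates are on GRCm38 (mm10).
Lin28a, chr4:134005179-134005208, minus strand: cagcctgttgaaCTACCTCatttttgccga
Lin28b, chr10:45381012-45381041, minus strand: cgggcgggaagtCTACCTCatgcaagcaca
Trim71, chr9:114512462-114512491, minus strand: attgcctaagtcCTACCTCagcttaaattt
Igf2bp1, chr11:95961768-95961797, minus strand: gtgcgaagtaaaCTACCTCaaggtgtgaag
Igf2bp2, chr16:22059463-22059492, minus strand: cacaaataaaagCTACCTCaggtgtttttt
Igf2bp3, chr6:49086777-49086806, minus strand: atttttactcaaCTACCTCaggtattcagt
Hmga1, chr17:27563280-27563309, plus strand: tctgttcacaaaCTACCTCtggacggttgt
Hmga2, chr10:120364214-120364243, minus strand: gacattcaatttCTACCTCagcatcagttg
All of them but that of Hmga1 are followed by A. The first matches of Hmga2 and Lin28b lie 21 and 36 nt after the stop codon.

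**Figure D4:**
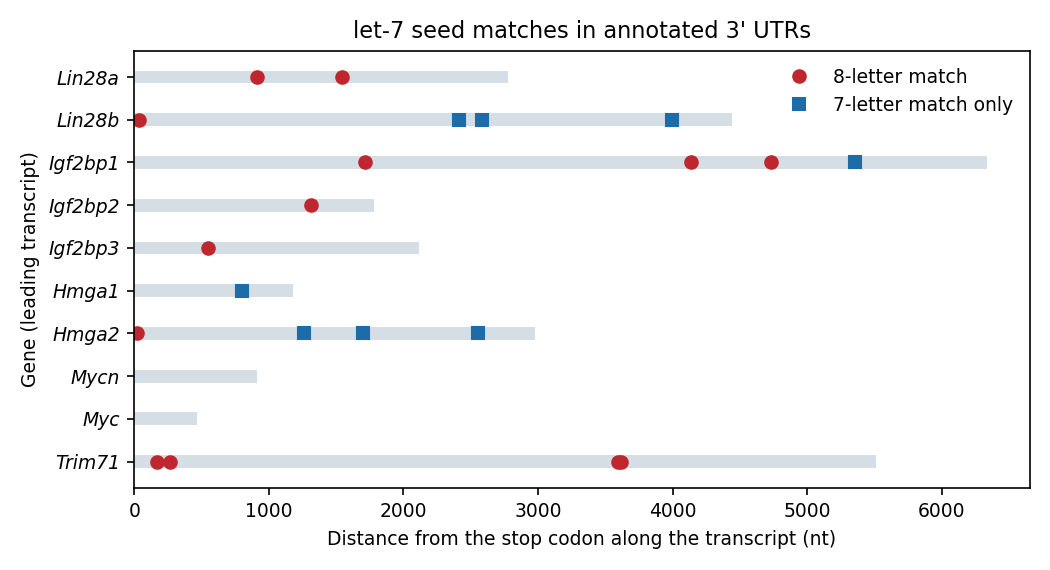
Annotated 3′ UTR of each gene's leading transcript (grey bars, in nt from the stop codon) with the let-7 seed matches as red circles (8-letter form) or blue squares (7-letter form only). Hmga2 and Lin28b have a match close to the stop codon, all 4 of Trim71 are of the 8-letter form, and the bars of Mycn and Myc are empty.

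Transcripts with the match in an annotated 3′ UTR made up at least 50% of the gene's TPM in both libraries in 6 genes. They were Hmga2 (99.17% in replicate 1 and 99.38% in replicate 2), Hmga1 (90.83% and 92.93%), Igf2bp1 (81.43% and 80.99%), and the single-transcript genes Igf2bp3, Lin28b and Trim71. For Igf2bp2 the share was 49.62% in replicate 1 and 45.05% in replicate 2 over annotated 3′ UTRs. Igf2bp2-207 and Igf2bp2-206 hold the same letters but have no annotated reading frame, and with them the share was 90.89% in replicate 1 and 89.77% in replicate 2.

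LIN28 proteins recognise a GGAG element in the loop of let-7 hairpins. Of the 12 mouse let-7 hairpins with both arms placed in RefSeq (GRCm38.p6), 9 held these letters in the loop, and Mir98, Mirlet7b and Mirlet7c-2 did not. A hairpin of each kind is shown, with GGAG of the loop in capitals.
Mirlet7g, chr9:106178840-106178927, plus strand: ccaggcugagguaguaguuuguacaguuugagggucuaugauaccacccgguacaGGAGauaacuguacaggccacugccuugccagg
Mirlet7b, chr15:85707319-85707403, plus strand: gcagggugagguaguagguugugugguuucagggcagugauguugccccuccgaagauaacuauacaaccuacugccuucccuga
The level of let-7 itself was not measured in these libraries, which were selected for longer fragments. The 10 hairpin genes in the tables had 0 counts in both libraries, with lengths from 83 to 108 nt and effective lengths of at most 9 nt, so a 0 there says nothing of mature let-7. The long host transcript of the let-7c-1 hairpin, Mir99ahg, was at 20.36 TPM in replicate 1 and 22.99 TPM in replicate 2.

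The mRNAs of the enzymes that make and destroy let-7 were detected. All 11 genes of let-7 processing were detected, with a median of 25.5 ± 1.12 TPM (SD, n = 2). They were led by Ran, the GTPase that works with exportin, at 593.65 TPM in replicate 1 and 530.45 TPM in replicate 2. The DICER partners Tarbp2 (74.11 and 74.82 TPM in replicates 1 and 2) and Prkra (65.95 and 63.83 TPM) followed, while Dicer1 itself was at 7.71 and 8.3 TPM. The 7 genes that control or degrade let-7 precursors, likewise all detected, had a median of 36.3 ± 0.884 TPM. The precursor-binding protein gene Hnrnpa1 was at 820.21 and 804.17 TPM in replicates 1 and 2. The uridylyl transferase gene Tut4, which LIN28A recruits to let-7 precursors, was at 56.87 and 59.3 TPM, and the poly(A) polymerase gene Tent2 at 55.84 and 52.8 TPM. Dis3l2, whose exonuclease degrades uridylated let-7 precursors and is mutated in Perlman syndrome, an overgrowth disorder with Wilms tumour, was at 21.97 TPM in replicate 1 and 24.72 TPM in replicate 2.

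Known let-7 targets outside the set were also expressed: 16 of 17 were detected, and the list median was 28.1 ± 0.00707 TPM. That median is the level of 1 gene, Insr, at 28.08 TPM in replicate 1 and 28.07 TPM in replicate 2. The cyclins Ccnd1, at 196.38 and 182.54 TPM in replicates 1 and 2, and Ccnd2, at 110.62 and 113.97 TPM, led the list. The GTPase gene Nras followed at 77.93 and 74.57 TPM. The germ cell nuclear factor gene Nr6a1 was below 1 TPM, at 0.95 in replicate 1 and 0.85 in replicate 2. Of the 12 such targets whose leading transcript could be searched, 10 held the 7-letter match, beside 8.27% of all detected genes searched. The list was made of known let-7 targets, so this count follows from the choice.

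By their medians, partners of the Myc proteins were at lower TPM than known Myc target genes. The median of the 17 partners and antagonists, all of them detected, was 23.2 ± 2.31 TPM. The ATPase genes Ruvbl1 (133.42 and 137.45 TPM in replicates 1 and 2) and Ruvbl2 (122 and 122.7 TPM) and the kinase gene Aurka (92.14 and 90.87 TPM), whose product stabilises MYCN, led them. Max, the obligate partner of both Myc proteins, was at 14.59 TPM in replicate 1 and 11.94 TPM in replicate 2. The 15 known Myc target genes were detected too and had a median of 151 ± 3.42 TPM. They were led by the cell cycle kinase gene Cdk4 (1523.46 and 1483 TPM) and the nucleolar protein genes Npm1 (1034.58 and 911.78 TPM) and Ncl (406.45 and 427.51 TPM). Such genes are high in many growing tissues, and no sample without Myc was measured.

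Genes whose products work with the Igf2bp family were all detected, over a wide range of levels. All 8 genes of their mRNA-protein complex were detected, with a median of 79.3 ± 3.05 TPM, led by Ybx1 (582.25 and 556.22 TPM in replicates 1 and 2), the poly(A)-binding protein gene Pabpc1 (297.27 and 291.06 TPM) and Hnrnpu (92.32 and 82.47 TPM). All 13 genes that write, erase or read m6A, an mRNA mark that IGF2BP proteins bind, were detected and had a median of 32.2 ± 0.0778 TPM. Wtap of the writer complex (113.53 and 107.97 TPM), the reader gene Ythdf2 (90.89 and 85.05 TPM) and the eraser gene Fto (65.95 and 70.5 TPM) were the highest of them. The 6 known client RNAs fell into 3 high and 3 low ones. They were led by Actb (5039.43 and 4901.01 TPM), Igf2 (563.57 and 559.27 TPM) and the non-coding H19 (351.97 and 384.29 TPM). The others, Cdk6 (13.93 and 16.69 TPM), Btrc (13.79 and 13.61 TPM) and Cd44 (4.35 and 4.41 TPM), were below the median detected protein-coding gene.

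Among the other high-mobility-group genes, all 7 were detected, and their median was 339 ± 16.6 TPM. The nucleosome-binding Hmgn2 was at 2280.6 and 2158.23 TPM in replicates 1 and 2, the DNA-bending Hmgb1 at 1414.6 and 1151.3 TPM and Hmgn1 at 648.22 and 544.17 TPM. Each of these 3 genes was above Hmga1, the highest of the set. All 7 had the lower TPM in replicate 2, with none past 2-fold, though Hmgb1 was past the limit of its abundance bin.

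Cell cycle inhibitors of the Ink4 and p21 group, which HMGA2 and MYC are known to restrain, spanned a wide range of levels. Of the 6 genes, 4 were detected, with a list median of 8.86 ± 0.495 TPM. Cdkn1a, which encodes p21, was at 75.16 TPM in replicate 1 and 58.51 TPM in replicate 2, Cdkn2d at 45.82 and 45.43 TPM and Cdkn1b at 14.46 and 12.88 TPM. Cdkn2b was at 1.48 TPM in replicate 1 and 0.85 TPM in replicate 2. Cdkn2a, the locus of the proteins INK4A and ARF, was listed at 0 TPM in replicate 1 and 0.05 TPM in replicate 2, from 0 and 1 counts, where a count of 0 allows up to 3 counts. Of the 11 lists, let-7 host genes included, 9 had a median above that of the detected protein-coding genes. By means, 6 lists were above the mean of those genes. No gene of these lists at 1 TPM or more in both libraries passed 2-fold between the pools. Genes below 1 TPM in a library, such as Cdkn2a, were not eligible for that count. The 2-fold bar is wider than the abundance-bin limits applied to the set. Cdkn1a and Hmgb1 were past those limits, which are 0.268 and 0.253 in log2 for their bins. Their TPM ratios of replicate 2 over replicate 1 were 0.778 and 0.814.

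**Figure D5:**
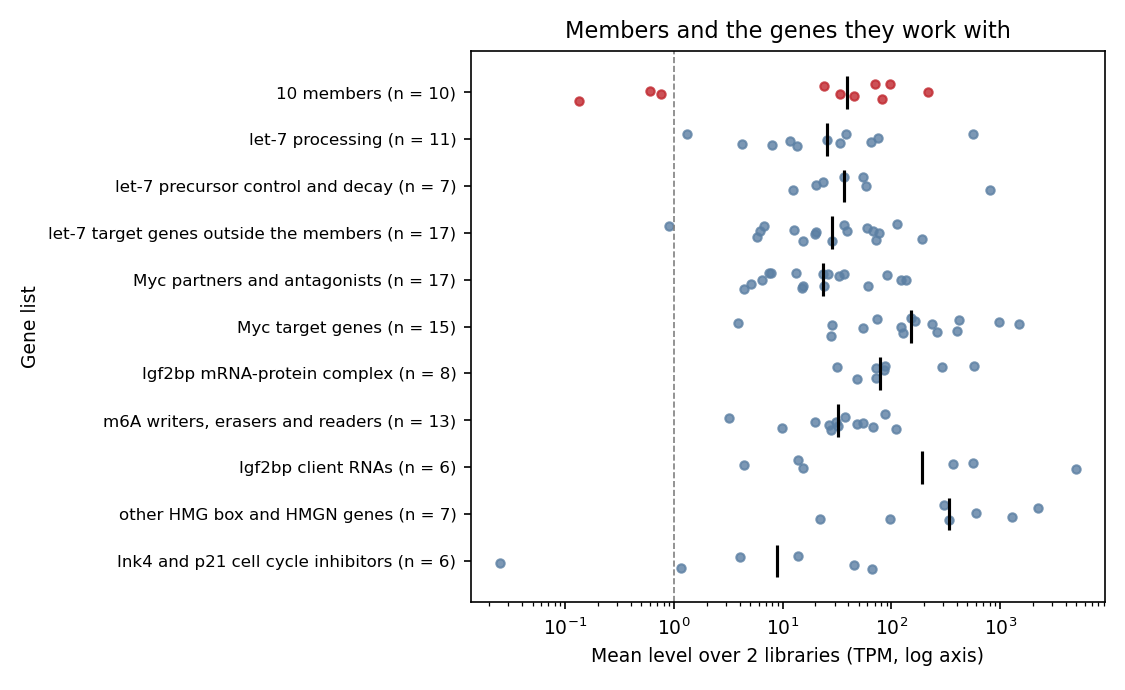
Mean level over the 2 libraries in TPM (log axis) of the 10 genes (red, top row) and of the genes of 10 lists of partners and targets (blue), 1 point a gene, with the list median as a black bar and the dashed line at 1 TPM. The 10 genes fall into 7 from 23.9 to 218 TPM and 3 below 1 TPM, and the highest list medians are those of the other high-mobility-group genes, at 339 TPM, the client RNAs, at 192 TPM in a gap between 3 high and 3 low genes, and the Myc target genes, at 151 TPM.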

How the data were processed

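Each of the 2 libraries had a table per gene and per transcript. The reads were aligned to mm10 and quantified with GENCODE M4, per the text files deposited beside the tables. Neither the aligner and quantifier nor the use of strand is given in the sources used here. Expected counts of the opposite genes Igf2bp3 and Malsu1 added up to whole numbers in both libraries, as did those of Trim71 and C130032M10Rik. Reads were thus shared between opposite strands there, and levels of overlapping genes are uncertain. The deposited expected counts share out reads that match several features, so they need not be whole. The deposited TPM and FPKM values are scaled by length and library, spike-ins included. The percent of a gene's TPM held by each transcript and the bounds of the TPM interval are the authors' columns, per the file headers.

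Gene models were those of GENCODE M21 (also mm10), in which 42462 genes were found by unversioned identifier. Of the 41 transcripts of the set, 33 have the same length there, and the let-7 background used leading coding transcripts within 100 nt. Near-identical copies were found with blastn 2.17.0. R 4.3.3 with edgeR 4.0.16 and DESeq2 1.42.0 gave scaling factors from rounded counts for alternatives, and Python 3.11.15 with pandas 2.3.3 and scipy 1.17.1 the rest. Counting intervals are exact (Clopper-Pearson, 95%) and cover counting error only. The members, lists and rules were chosen with earlier results of these data known. All 10 members are named, and from each pathway list the 3 highest genes, any below 1 TPM in both libraries and any past 2-fold. Marker lists are given as summed levels, with some gut and pancreas markers also given singly. Cdk6, Btrc, Cd44, Mycl, Max, Dicer1, Dis3l2, Cdkn2b, Hic2 and Trim6 were named after their values were seen. So were Insr, Vil1, Muc2 and Cpa1. No test across groups was possible, and values are mean ± SD of 2 pools, whose spread may be partly technical. With 2 values a very small SD can be a near tie and is not a measure of precision. The SD of a list median is the spread of that median between the pools, not the spread of the list.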

Additional observations from a re-analysis of the deposited data

How the results depend on the processing

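The median level of the 10 genes was 39.4 ± 1.15 TPM. It was 26.5 in FPKM, 43.7 with TPM rescaled to annotated nuclear genes, and 35.2 TPM over coding transcripts only, with or without Igf2bp2-207 added. Each library alone gave 38.6 to 40.2 TPM. None of the genes differed between the pools in TPM, FPKM or rescaled TPM, or with a pseudocount of 1 or 0.1, but 1 gene, Lin28a, passed its limit in scaled counts (CPM) with TMM factors or with DESeq2's size factors (1 gene each), with 3 counts in replicate 1 and 13 in replicate 2. The count of detected genes was 7 at 1 and 5 TPM and 9 at 0.5 TPM. The count of differing pairs ran from 36, with the 99th percentile as the limit, to 42, with a pseudocount of 0.1. Under the 99th percentile or a single limit for all genes, Myc and Mycn, Igf2bp1 and Igf2bp3, and Igf2bp3 and Hmga2 were no longer separated, nor were Igf2bp1 and Hmga2 under the 99th percentile or Mycn and Igf2bp1 under the single limit, which did separate Trim71 from Lin28a (0.63). Over coding transcripts only, Mycn stood above Igf2bp2 by 0.82 and Myc by 1.32 on the log2(TPM + 1) scale. With Igf2bp2-207 added, Myc was above it by 0.44. By means in place of medians, 6 lists in place of 9 were above the detected protein-coding genes. Low counts limit Lin28a, Lin28b and Trim71. No paired analysis was possible because the series has 1 group.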

Other observations

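Values of 2 further transcripts fall outside the comparisons above. Igf2bp2-202, a shorter coding transcript of Igf2bp2 with a reading frame of 524 residues, held 6.41% of the gene's TPM in replicate 1 and 3.11% in replicate 2. Hmga2-203, with a reading frame of 129 residues, held 0% of Hmga2 in replicate 1 and 1.18% in replicate 2, from 0 and 26.39 expected counts. The difference of Igf2bp2-202 was below the 95th percentile of 8.79 percentage points, with 371.28 expected counts in replicate 1 and 202.53 in replicate 2. That percentile was taken over transcripts with a mean share of at least 1%, so it does not cover Hmga2-203. Neither difference was tested.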
